A study of Homo sapiens with 8 samples.

Results

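Krüppel-like factors (KLFs) are transcription factors that bind GC-rich and CACC-type promoter elements through zinc fingers at the C-terminal end of the protein. The 10 genes described here are KLF2, KLF3, KLF4, KLF5, KLF6, KLF7, KLF9, KLF10, KLF11 and KLF13, taken by gene name from 60106 genes in the deposited count files, which hold 18 genes named KLF and a number. All 10 are annotated as protein-coding and passed the filter on low counts. They were followed in pneumospheres, which are floating spheres of non-small cell lung cancer cells. PD-L1s is a soluble, synthetic version of PD-L1, the checkpoint ligand. Spheres kept for 15 min in medium with 0% serum and 25 µg/ml of PD-L1s (n = 4 libraries) were set against untreated spheres (n = 4). Each of the 4 established lines gave 1 library of either kind. H23, H820 and H1975 are labelled adenocarcinoma and EBC1 is labelled squamous cell carcinoma, and all were grown without attachment in serum-free medium with growth factors. The 4 lines served as replicates for the treatment, and within a line there was no replicate of a condition.

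KLF proteins fall into groups by the partners they recruit. KLF2, KLF4, KLF5, KLF6 and KLF7 mainly activate transcription, KLF3 recruits the corepressor CtBP, and KLF9, KLF10, KLF11 and KLF13 recruit the corepressor Sin3A. Several KLF transcripts are short-lived and are made within minutes to hours of a stimulus, such as shear stress for KLF2 and KLF4, TGF-beta for KLF10 and KLF11, and glucocorticoid for KLF9. In the lung, KLF5 is known from airway and alveolar epithelium, and KLF2 and KLF4 are known from endothelium.

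The sequences just upstream of the start sites of KLF2, KLF4 and KLF6 are shown because these 3 genes had the smallest unadjusted p-values of the treatment among the 10. They are the 250 bases before the RefSeq start, on the gene's strand, from the GRCh38.p14 build, at chr19:16324576-16324825 (plus strand) for KLF2, chr9:107489770-107490019 (minus strand) for KLF4 and chr10:3785210-3785459 (minus strand) for KLF6. Capitals mark GC boxes (GGGCGG, the element bound by SP and KLF proteins, read on both strands) and, in KLF2, a MEF2 box.
KLF2: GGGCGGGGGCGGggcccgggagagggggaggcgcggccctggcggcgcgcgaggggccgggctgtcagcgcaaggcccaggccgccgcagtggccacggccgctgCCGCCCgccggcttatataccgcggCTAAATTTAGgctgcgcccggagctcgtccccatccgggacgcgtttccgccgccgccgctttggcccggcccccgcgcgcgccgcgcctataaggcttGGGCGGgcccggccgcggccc
KLF4: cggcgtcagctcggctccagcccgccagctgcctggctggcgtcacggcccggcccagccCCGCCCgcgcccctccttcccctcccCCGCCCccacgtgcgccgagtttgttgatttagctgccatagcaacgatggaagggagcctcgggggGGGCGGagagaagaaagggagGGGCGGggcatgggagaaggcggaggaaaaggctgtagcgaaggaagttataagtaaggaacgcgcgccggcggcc
KLF6: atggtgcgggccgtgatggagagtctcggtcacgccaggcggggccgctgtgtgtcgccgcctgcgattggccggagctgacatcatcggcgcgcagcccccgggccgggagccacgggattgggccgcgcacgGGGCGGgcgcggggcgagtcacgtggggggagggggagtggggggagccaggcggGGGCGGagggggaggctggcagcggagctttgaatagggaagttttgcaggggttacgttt
KLF2 and KLF4 had 4 GC boxes each and KLF6 had 2. Among the 13 entries matched for 8 of the 10 genes, only the KLF2 window had a MEF2 box, 120 to 111 bases before the start. A MEF2 box was found in 0.515% of 35116 promoter windows of the same length. The MEF2 factors that bind this element act below the kinase ERK5 on KLF2 and KLF4 in endothelium.

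RefSeq promoter entries were matched for 8 of the 10 genes, 13 entries in all, as KLF5, KLF7 and KLF11 have several. KLF3 and KLF10 were not matched. A GC box was present in 8 of the 13 entries, against 42.6% of all promoter windows. A CACC box (CACCC, both strands), the other element KLF proteins bind, was present in 6 of the 13 entries, against 54.7% of windows. Of elements bound by stimulus-dependent factors, the cyclic AMP response element (TGACGTCA) was found in 1 KLF11 entry, overlapping a CACC box by 2 bases, and in 1.65% of windows. The CArG box, bound by serum response factor, was found in 1 KLF7 entry and in 1.16% of windows. The AP-1 element (TGANTCA) was in 0 of the 13 entries and in 6.57% of windows. These are matches of letters and not shown binding sites.

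Depth was close within H23 and H1975, where PD-L1s libraries held 15563010 and 22241208 counts, against 20310707 and 23751862 in untreated libraries. In EBC1 the PD-L1s library held 27524854 counts and the untreated one 5894946, a ratio of 4.67. In H820 the numbers were 23783679 and 5559870, a ratio of 4.28. Mitochondrial transcripts took 2.47% of counts in PD-L1s H820 and 4.07% in untreated H820, and 0.972% in PD-L1s EBC1 and 1.65% in untreated EBC1. They took 2.01% to 2.56% in H23 and H1975. EBC1 had little or none of 4 of the 5 squamous markers of the list, since TP63 was at most 0.314 CPM (counts relative to the TMM-scaled library size), KRT5, KRT14 and DSG3 were at 0 counts, while SOX2 was detected at 5.78 CPM with PD-L1s and 6.53 CPM without. TP63 was instead 86.7 and 87.2 CPM in H1975. NKX2-1, the lung lineage factor of adenocarcinoma, was 35.6 to 78.4 CPM in H820 and H1975 and 5.46 to 5.68 CPM in H23, whereas SFTPB and SFTPA1 were at most 0.283 CPM in any library. H23 was low in epithelial markers, with CDH1 at most 2.01 CPM against at least 332 CPM in the other lines. KLF2 is high in endothelial and immune cells, and markers of these cells were mixed. VWF and TEK were at most 0.465 CPM, PTPRC at most 0.402 CPM and MS4A1 at 0 counts. The 5 immune markers summed to between 6.79 and 152 CPM with PD-L1s and between 4.98 and 125 CPM without, nearly all from CD68. The 4 endothelial markers found summed to between 0.403 and 11.2 CPM with PD-L1s and between 0.192 and 11.5 CPM without, the highest in H1975 through KDR and CDH5. KDR was 6.22 to 7.51 CPM in H820 and H1975, and CDH5 was 3.80 and 4.57 CPM in H1975. Whether such cells contributed to KLF2 was not tested.

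The first question was how much of each KLF transcript the 4 lines held. Per exonic length, as FPKM, KLF10 led in H23 and EBC1, KLF5 in H820 and KLF6 in H1975. KLF10 had a mean of 16.1 FPKM in H23 and 83.3 FPKM in EBC1, KLF5 had 52.2 FPKM in H820, and KLF6 had 65.3 FPKM in H1975 (n = 2 libraries a line). The leading gene made up 40.9% of the summed FPKM of the 10 genes in EBC1, 33.5% in H820, 33.0% in H1975 and 23.8% in H23. The sum itself was 204 FPKM in EBC1, 198 in H1975, 156 in H820 and 67.7 in H23. KLF2 was the lowest of the 10 in EBC1, H820 and H1975, at 1.21, 0.600 and 3.11 FPKM, and KLF5 was the lowest in H23, at 1.28 FPKM. In bulk RNA, more cells with a transcript and more of it per cell cannot be told apart.

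**Figure D1:**
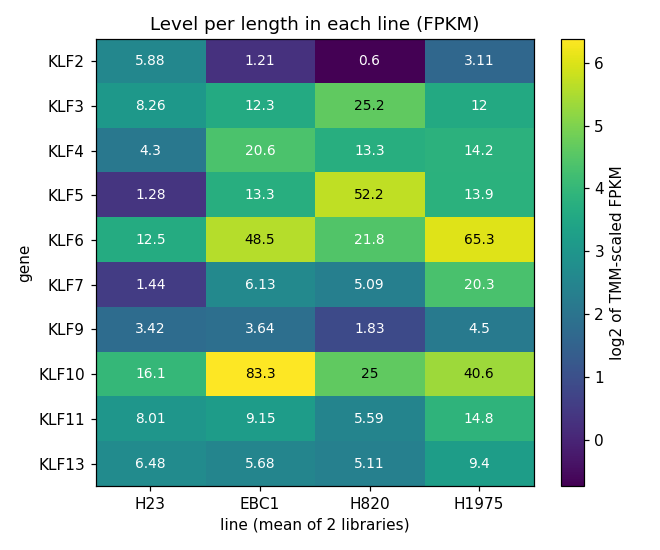
Mean FPKM of each KLF gene (rows) in each line (columns), over the PD-L1s and the untreated library, with colour on a log2 scale. KLF10 in EBC1 (83.3 FPKM), KLF6 in H1975 (65.3) and KLF5 in H820 (52.2) stand out, and KLF2 in H820 (0.600) is the lowest cell.

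Lines were compared in pairs with edgeR's quasi-likelihood test, in the fit that also held the treatment, with Benjamini-Hochberg adjustment over all 24185 genes tested and an adjusted p under 0.05 as the call. Each line gave 2 libraries, 1 treated and 1 untreated, and the fit takes out the treatment change shared by the lines. These p-values thus rest on how the gap between the 2 libraries varied from line to line, pooled over all lines. Of the 10 genes, 9 were called in H820 against H23 (58.9% of all genes tested), 9 in H1975 against H23 (62.6%), 9 in H820 against H1975 (54.5%), 8 in EBC1 against H820 (55.7%), 7 in EBC1 against H23 (61.3%) and 7 in EBC1 against H1975 (52.6%). Most genes thus differed between any 2 lines, the shares of the 10 genes lay near or above this background, and the pairs share libraries. KLF2, KLF6 and KLF10 were called in all 6 pairs, and KLF9 and KLF13 in 3.

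KLF2 (GRCh37 chr19:16435628-16438685, plus strand), an activator that keeps endothelial cells and T cells quiescent, was highest in H23, next in H1975, then EBC1 and lowest in H820. Its means were 11.9 ± 5.54 CPM in H23, 6.28 ± 2.46 in H1975, 2.44 ± 1.82 in EBC1 and 1.21 ± 0.203 in H820 (SD, n = 2 libraries, 1 of them treated). H23 exceeded H1975 1.86-fold (edgeR adjusted p = 0.00310), H1975 exceeded EBC1 2.42-fold (adjusted p = 0.00138) and EBC1 exceeded H820 2.56-fold (adjusted p = 0.00661). Without PD-L1s EBC1 or without PD-L1s H820 the last difference missed the threshold (adjusted p = 0.509 and 0.610), and without PD-L1s H23 so did the first (adjusted p = 0.0667).

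KLF4 (chr9:110247133-110252047, minus strand), an activator and repressor of epithelial differentiation and a reprogramming factor, was highest in EBC1 and lowest in H23. Its mean was 60.4 ± 14.4 CPM in EBC1, 41.5 ± 2.01 in H1975, 39.0 ± 9.45 in H820 and 12.6 ± 3.01 in H23. EBC1 exceeded H1975 1.43-fold (edgeR adjusted p = 0.00911), but not past the threshold without the PD-L1s library of EBC1 (adjusted p = 0.101) or of H1975 (adjusted p = 0.361). H1975 and H820, next to each other in the order, did not differ past the threshold (edgeR adjusted p = 0.585). H820 exceeded H23 3.11-fold (adjusted p = 1.13e-07).

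KLF5 (chr13:73629114-73651680, plus strand), an activator of epithelial proliferation, had the widest span of the 10 genes over the lines. H820 held 196 ± 20.4 CPM, H1975 52.1 ± 0.146, EBC1 49.9 ± 5.70 and H23 4.81 ± 1.02. H820 exceeded H23 by 5.35 ± 0.182 on the log2 scale (SE, edgeR adjusted p = 4.99e-14), which is 40.9-fold. H820 exceeded H1975 3.74-fold (edgeR adjusted p = 5.53e-09) and EBC1 exceeded H23 10.4-fold (adjusted p = 9.56e-12). H1975 and EBC1 did not differ past the threshold (edgeR adjusted p = 0.749).

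KLF6 (chr10:3818188-3827473, minus strand), a broadly expressed activator studied as a tumour suppressor, was highest in H1975, at 390 ± 28 CPM, followed by EBC1 at 290 ± 13.5, H820 at 130 ± 39.3 and H23 at 75.0 ± 14.0 CPM. EBC1 exceeded H820 2.26-fold (edgeR adjusted p = 1.20e-05) and H820 exceeded H23 1.73-fold (adjusted p = 6.40e-04). The 1.35-fold excess of H1975 over EBC1 had an adjusted p of 0.0395. It missed the threshold without either library of H23, EBC1 or H1975 (6 fits, edgeR adjusted p = 0.0586 to 0.373).

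KLF7 (chr2:207938861-208031970, minus strand), an activator known from developing neurons, was set apart by H1975, which held 175 ± 7.69 CPM, 3.32-fold more than EBC1 at 52.9 ± 3.40 CPM (edgeR adjusted p = 7.64e-08). EBC1 and H820, at 43.9 ± 10.5 CPM, did not differ past the threshold (edgeR adjusted p = 0.157). The log2 difference of EBC1 over H820 was 0.29, and 0.54 without untreated H820. H820 exceeded H23, at 12.4 ± 0.990 CPM, 3.48-fold (adjusted p = 7.37e-08).

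KLF3 (chr4:38665817-38702663, plus strand), the CtBP-recruiting repressor, was highest in H820, at 151 ± 3.01 CPM, 2.04-fold above EBC1 at 73.9 ± 3.77 CPM (edgeR adjusted p = 8.31e-06). EBC1 and H1975, at 71.9 ± 1.18 CPM, did not differ past the threshold (edgeR adjusted p = 0.844). H23 was lowest, at 49.5 ± 0.992 CPM, and H1975 exceeded it 1.45-fold (adjusted p = 0.00295, and 0.0529 to 0.0733 without either H23 library or untreated H1975). Its neighbour on the opposite strand, RP11-617D20.1, shares 266 exonic bases with it but was counted apart by strand.

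KLF10 (chr8:103661007-103668130, minus strand), a TGF-beta-inducible repressor, was highest in EBC1, at 334 ± 21.6 CPM, 2.04-fold above H1975 at 162 ± 0.765 CPM (edgeR adjusted p = 1.76e-04). H820, at 99.9 ± 40.7 CPM, was between H1975 and H23, at 64.4 ± 1.59 CPM. H1975 exceeded H820 1.65-fold (adjusted p = 0.00412, and 0.0504 and 0.0550 without untreated H820 and without untreated H1975). The 1.53-fold excess of H820 over H23 (adjusted p = 0.0118) missed the threshold without PD-L1s H820 (adjusted p = 0.506) and without PD-L1s H23 (adjusted p = 0.220). KLF11 (chr2:10183682-10194963, plus strand), the other TGF-beta-inducible member, was highest in H1975, at 63.4 ± 2.47 CPM, 1.60-fold above EBC1 at 39.3 ± 5.07 CPM (adjusted p = 9.70e-04). EBC1 and H23, at 34.4 ± 0.559 CPM, did not differ past the threshold (edgeR adjusted p = 0.259), and H820 was lowest, at 24.0 ± 0.776 CPM. H23 exceeded it 1.44-fold (adjusted p = 0.00756, and 0.0548 to 0.0694 without either H23 library).

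KLF9 (chr9:72999513-73029540, minus strand), a glucocorticoid- and thyroid hormone-responsive repressor, and KLF13 (chr15:31619058-31670102, plus strand), a repressor that also activates CCL5 in T cells, varied least. KLF9 averaged 23.3 ± 0.370 CPM in H1975, 18.8 ± 2.72 in EBC1, 17.7 ± 0.280 in H23 and 9.44 ± 4.97 in H820, and of its neighbouring lines only H23 and H820 differed past the threshold (1.80-fold, edgeR adjusted p = 0.00268). KLF13 averaged 64.7 ± 3.46 CPM in H1975, 1.46-fold above H23 at 44.6 ± 3.98 CPM (adjusted p = 0.00467, and 0.0513 and 0.221 without untreated H23 and without untreated H1975). EBC1, at 39.1 ± 8.29 CPM, and H820, at 35.2 ± 2.56 CPM, followed and did not differ from their neighbours in the order past the threshold. KLF13 spanned 1.84-fold from its highest to its lowest line.

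**Figure D2:**
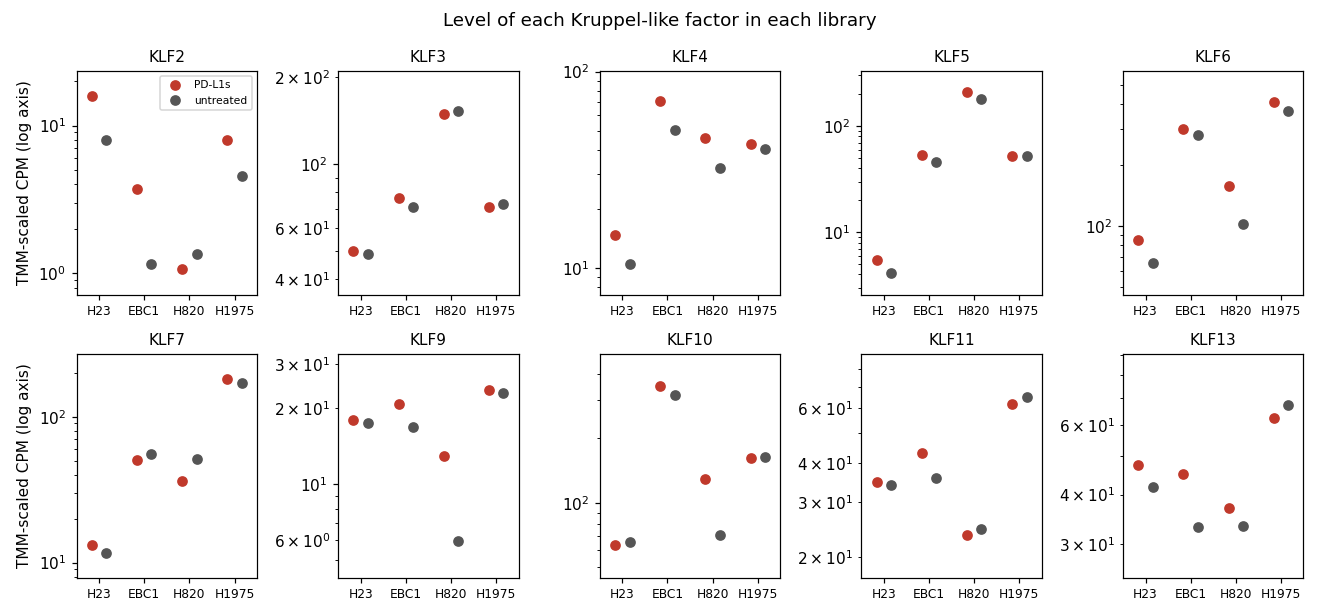
TMM-scaled CPM of each KLF gene in each library (log axis, its range differing between panels), with PD-L1s in red left of untreated in grey within each line. KLF5 spans 4.10 to 210 CPM over the lines, and KLF2 with PD-L1s lies above untreated in H23, EBC1 and H1975 but not in H820.

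The main comparison asked which transcripts differed 15 min after PD-L1s was added. Fitted over the 4 lines, KLF2, KLF4 and KLF6 had the largest changes among the 10 genes, all higher with PD-L1s, but none of the 10 passed the threshold, against 0.0372% of all genes tested (9 genes), and DESeq2 and limma-voom called none of them either. Under an unadjusted p of 0.05, 3 of the 10 were higher (2.58% of all genes) and none was lower. KLF4, KLF5, KLF6 and KLF9 were higher in all 4 lines (7.03% of all genes), although with library size only KLF5 in H820 and H1975 and KLF6 in EBC1 had log2 ratios of -0.0184, -0.0107 and -0.0286. The fitted change was above 0 for 9 of the 10, against 59.9% of all genes, with a median log2 change of 0.21, against 0.04. The 10 genes were chosen with earlier results of these data known, so these shares are no test of the family. Of the other KLF genes, 6 were tested, with 4 fitted above 0 and a median of 0.08.

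KLF2 had 15.8 CPM with PD-L1s and 7.95 CPM without in H23, 8.02 and 4.54 CPM in H1975, 3.72 and 1.15 CPM in EBC1, and 1.07 and 1.35 CPM in H820. It was higher with PD-L1s in 3 of 4 lines, and the groups of 4 overlapped because the lines differ so widely in level. The counts behind these values were 314 and 198 in H23, 170 and 104 in H1975, 83 and 6 in EBC1, and 23 and 8 in H820, so the ratio is least precise in EBC1 and H820. The fitted change was 1.85-fold (log2 0.89 ± 0.211, SE, 95% interval of the fold 1.36 to 2.52, edgeR unadjusted p = 5.37e-04, rank 20 of 24185, adjusted p = 0.650). Without H820, the 1 line with the lower value under PD-L1s, it was called, at a log2 change of 0.98 (edgeR adjusted p = 0.0202). It was not called without H23, EBC1 or H1975 (edgeR adjusted p = 0.921, 0.9995 and 0.914). In H23 and H1975 alone, the lines with even depth, a choice made after seeing the data, it was called at 0.92 (adjusted p = 1.45e-06). Over all alternatives the adjusted p ran from 1.45e-06 to 0.99999.

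KLF4 had 14.7 CPM with PD-L1s and 10.5 CPM without in H23, 70.6 and 50.1 CPM in EBC1, 45.7 and 32.3 CPM in H820, and 43.0 and 40.1 CPM in H1975. The ratio was close to 1.41-fold in H23, EBC1 and H820 and 1.07-fold in H1975. Over the lines the change was 1.31-fold (log2 0.39 ± 0.113, SE, edgeR unadjusted p = 0.00305, adjusted p = 0.9995). KLF6 had 84.9 CPM with PD-L1s and 65.1 CPM without in H23, 300 and 281 CPM in EBC1, 158 and 102 CPM in H820, and 410 and 371 CPM in H1975. On the TMM scale it was higher with PD-L1s in each line, 1.54-fold in H820 and 1.07-fold in EBC1 at the extremes. Its fitted change was 1.24-fold (log2 0.31 ± 0.119, SE, edgeR unadjusted p = 0.0188, adjusted p = 0.9995).

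KLF5 had 5.53 CPM with PD-L1s and 4.10 CPM without in H23, 54.0 and 45.9 CPM in EBC1, 210 and 181 CPM in H820, and 52.2 and 52.0 CPM in H1975. On the TMM scale the values were higher with PD-L1s in each line, by least in H1975, and the fitted log2 change was 0.20 ± 0.110 (edgeR adjusted p = 0.9995). The remaining genes had fitted log2 changes of 0.28 ± 0.15 for KLF9, 0.22 ± 0.137 for KLF10, 0.15 ± 0.112 for KLF13, 0.03 ± 0.109 for KLF11, 0.02 ± 0.101 for KLF3 and -0.09 ± 0.119 for KLF7 (SE, n = 4 lines). The 95% interval of the log2 change ran from -0.20 to 0.23 for KLF3 and from -0.19 to 0.26 for KLF11, the narrowest pair among the 10.

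KLF13 had 47.4 CPM with PD-L1s and 41.8 CPM without in H23, 62.2 and 67.1 CPM in H1975, 45.0 and 33.2 CPM in EBC1, and 37.0 and 33.4 CPM in H820, so H1975 was the 1 line with the lower value under PD-L1s on the TMM scale. H820 was lower too with library size only (log2 ratio -0.0822) and after thinning (-0.0536). KLF11 had 42.9 CPM with PD-L1s and 35.7 CPM without in EBC1, 34.8 and 34.0 CPM in H23, 23.5 and 24.6 CPM in H820, and 61.7 and 65.2 CPM in H1975. It was higher in 2 lines and lower in 2, as was KLF3, the steadiest of the 10 genes. KLF3 had 76.6 CPM with PD-L1s and 71.3 CPM without in EBC1, 50.2 and 48.8 CPM in H23, 149 and 153 CPM in H820, and 71.1 and 72.8 CPM in H1975, and the counting interval of its ratio included 1 in each line. KLF7 had 181 CPM with PD-L1s and 170 CPM without in H1975, 13.1 and 11.7 CPM in H23, 50.5 and 55.3 CPM in EBC1, and 36.5 and 51.3 CPM in H820, where it stood lowest relative to its untreated library.

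**Figure D3:**
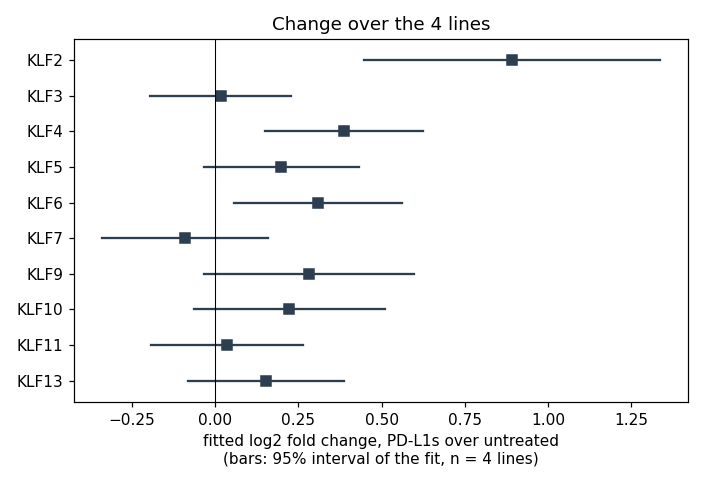
Fitted log2 fold change of each KLF gene, PD-L1s over untreated, with the 95% interval of the edgeR fit over 4 lines, not adjusted for the number of genes. The intervals of KLF2, KLF4 and KLF6 lie above 0, and those of the other 7 genes include it.

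Within single lines the values are a description of 2 libraries, and intervals cover counting error only. The ratio of PD-L1s to untreated CPM was above 1 for 9 of 10 genes in EBC1 and in H23 and for 6 of 10 in H820 and in H1975. Over all genes tested the share above 1 was 58.8% in EBC1, 54.9% in H820, 47.5% in H1975 and 47.4% in H23. The median log2 ratio was 0.25 in EBC1, 0.18 in H820, 0.17 in H23 and 0.02 in H1975, against at most 0.08 over all genes tested in any line. Among genes that reached 50 counts or more in either library, KLF2 in EBC1 was the 1 gene of the 10 over 2-fold higher in that line (1.33% of such genes), and KLF9 was the 1 in H820 (4.23%). None of the 10 was over 2-fold higher in H23 (0.136%) or in H1975 (0.113%), where KLF2 reached 1.99-fold (1.66 to 2.39) and 1.77-fold (1.38 to 2.28). In EBC1 KLF2 was 3.23-fold higher on 83 counts against 6, with a 95% counting interval of 1.42 to 9.05.

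**Figure D4:**
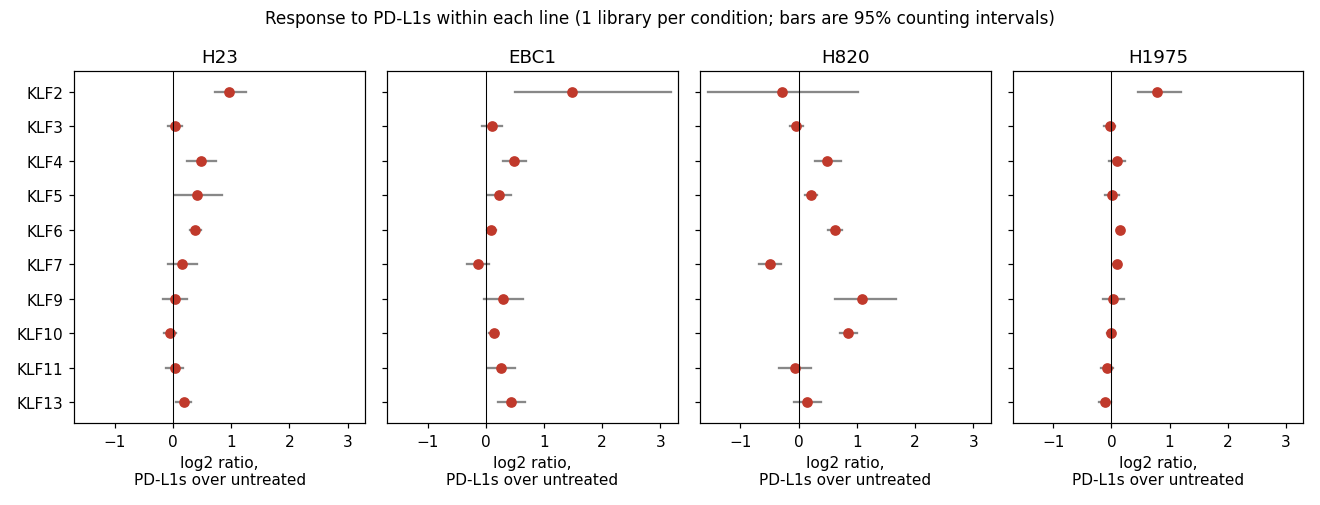
Log2 ratio of each KLF gene, PD-L1s over untreated, in each line (points, prior count of 5), with exact 95% binomial counting intervals computed without the prior count (bars). KLF2 lies at 1.48 in EBC1, 0.97 in H23, 0.78 in H1975 and -0.28 in H820, and H820 shows KLF9 at 1.09, KLF10 at 0.85 and KLF7 at -0.49.

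H820 stood apart from the other lines for KLF10, the only one of the 10 genes whose response differed past the threshold between a line and the other 3. KLF10 had 129 CPM with PD-L1s and 71.1 CPM without in H820, on 2770 and 420 counts, against 349 and 318 CPM in EBC1, 162 and 163 CPM in H1975 and 63.3 and 65.6 CPM in H23. The log2 ratio was 0.85 in H820 and averaged 0.02 over the other lines. The difference between them was 0.83 ± 0.188 (SE, interaction term in edgeR, adjusted p = 0.00865), a call made for 2.99% of all genes in H820. The call was lost without H23 (0.72, adjusted p = 0.132) and without H1975 (0.74, adjusted p = 0.110). H820 gave a single pair to this test, whose error came from the 3 remaining lines. The H820 libraries also differed in depth and in mitochondrial share. Depth was examined only by thinning, and the part of the mitochondrial share in the result was not tested. With the deeper library of each line thinned to the total of its partner, an alternative added after seeing the data, the difference was 0.77 (adjusted p = 0.0175, from 2.41e-06 to 0.132 over all alternatives).

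KLF9 in H820 had 13.0 CPM with PD-L1s and 5.93 CPM without, on 279 and 35 counts, and differed from the other lines' ratio by 1.03 ± 0.314 on the log2 scale (SE, edgeR adjusted p = 0.0731). In the other lines KLF9 had 17.9 and 17.5 CPM in H23, 20.8 and 16.9 CPM in EBC1, and 23.5 and 23 CPM in H1975. KLF7 in H820 had 36.5 CPM with PD-L1s and 51.3 CPM without, a ratio of 0.712 (95% counting interval 0.622 to 0.815), and its difference from the other lines was -0.53 ± 0.205 (adjusted p = 0.192). The opposite placing of KLF2 in H820, at a difference of -1.32 ± 0.696, was not past the threshold either (adjusted p = 0.406). None of the 10 genes was called in the same test of EBC1 (0.0124% of all genes), H1975 (0.0165%) or H23 (0.0207%), and none had an unadjusted p under 0.05 there.

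The genes around the KLF family were read from 8 lists, of which 66 of 70 genes could be tested. None was called for the treatment by edgeR (0.0372% of all genes tested). An unadjusted p under 0.05 was found for 3 of the 66, and for 873 of all 24185 genes tested. Of the other KLF genes 6 of 8 were tested, with 4 fitted above 0 and 2 below and a median log2 change of 0.08. KLF16, with the smallest unadjusted p of this list, was at 0.14 ± 0.126 (SE). The 9 SP genes, which bind the same GC boxes, had a median of 0.09, with SP1 at 0.17 ± 0.118. The 10 cofactor genes were all fitted above 0, with a median of 0.05, with the CtBP gene CTBP2 at 0.15 ± 0.106 and the corepressor gene RCOR1 at 0.17 ± 0.113. The 9 genes of the ERK5 to MEF2 pathway had a median of 0.11, with 7 fitted above 0. MEF2C, a MEF2 factor, was at 0.32 ± 0.178 and higher in 4 of 4 lines, on only 29, 31 and 43 counts in untreated H23, EBC1 and H820. The 4 ubiquitin ligase genes had a median of 0.02. By comparison the median over all genes tested was 0.04, with 59.9% fitted above 0 and 7.03% higher in all 4 lines.

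All 12 genes of TGF-beta signalling, the pathway that induces KLF10 and KLF11, had fitted changes above 0, as did 59.9% of all genes tested, with a median log2 change of 0.10. SMAD7, the pathway's inhibitory SMAD, was at 0.30 ± 0.192 and higher in 4 of 4 lines. It had only 24, 30 and 29 counts in untreated H23, EBC1 and H820, and 7.54 CPM with PD-L1s against 7.12 CPM without in H1975. Of the glucocorticoid receptor, which induces KLF9, and its other targets, 5 of 6 were tested, all with fitted changes above 0 and a median of 0.30. PER1, a clock gene and glucocorticoid target, had 134 CPM with PD-L1s and 111 CPM without in H23, 371 and 293 CPM in EBC1, 97.7 and 24.4 CPM in H820 and 95.1 and 91.4 CPM in H1975 (log2 0.60 ± 0.208, edgeR unadjusted p = 0.00993, adjusted p = 0.9995). SGK1, a kinase gene of the same list, was at 0.38 ± 0.162 (edgeR unadjusted p = 0.0306, adjusted p = 0.9995), with 569 CPM with PD-L1s and 243 CPM without in H820, 77.4 and 72.8 CPM in EBC1, 25.8 and 22.7 CPM in H1975 and 79.2 and 79.5 CPM in H23. Of 12 reported KLF target genes 11 were tested, 10 fitted above 0, with a median of 0.20. CCNB1 and BIRC5, with the smallest unadjusted p of this list, were at 0.35 ± 0.183 and 0.39 ± 0.227. They were higher in 3 and 2 of 4 lines. CDKN1A, the cell cycle inhibitor induced by KLF4 and KLF6, was at 0.20 ± 0.122 and higher in 2 of 4 lines.

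Over the 8 libraries, KLF levels followed the lines, and each correlation below describes 4 lines with 2 libraries each, in log2 CPM. KLF3 and KLF5 were most alike among the 10 genes (Pearson r = 0.918), followed by KLF6 and KLF7 (r = 0.890) and by KLF11 and KLF13 (r = 0.890). KLF2 ran opposite to KLF3 (r = -0.799) and KLF5 (r = -0.796). Among protein-coding genes whose average log2 CPM reached 1, the levels most like KLF5 were those of PVR and PTHLH (r = 0.997 and 0.996), and those most like KLF3 were CPEB4 and RND1 (r = 0.996 each). KLF10 was most like ENO2 and RAC1 (r = 0.995 each), KLF4 like TMEM171 and GDPD5 (r = 0.989 and 0.988), KLF2 like PGBD4 and PRR14 (r = 0.985 and 0.955). For KLF6 these were SIRPB1 and TTC37, for KLF7 UBAP2 and PARP9, for KLF9 ACTA2 and E2F8, for KLF11 MICALL2 and CENPT, and for KLF13 XPNPEP3 and ENTPD6, with r between 0.986 and 0.997. With 4 lines, many genes reach such values.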

How the data were processed

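RNA of 8 libraries was sequenced, and the deposited files hold raw counts of read pairs per gene with the authors' exonic lengths. The submitters' processing notes name GRCh37, STAR 2.7.3a and the Subread 2.0.0 package. Its featureCounts program, per the file headers, summed exons by gene from GENCODE 28 (basic set, lifted to that build), reverse-stranded, from primary alignments with both ends mapped and a mapping quality of at least 1. A pair over several genes on 1 strand counts for each. None of the 10 genes shares exonic bases with another gene on its strand. Per the labels' protocols, libraries were stranded total RNA depleted of ribosomal RNA, so unspliced RNA is included.

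Counts were fitted in edgeR 4.0.16 (R 4.3.3), with TMM scaling, line and treatment as terms, a minimum count of 10 in the expression filter (line as group), the quasi-likelihood test and Benjamini-Hochberg adjustment over 24185 genes. All tests are two-sided. Line contrasts came from the same fit, and responses of 1 line from an interaction term. CPM is the count relative to the TMM-scaled library size, and FPKM is CPM per exonic kilobase. Within-line log2 ratios used a prior count of 5. Intervals are exact binomial ones (95%), and a count of 0 allows up to 3 counts, 0.120 to 0.576 CPM. Both cover counting error only. The pairing comes from the labels, as both libraries of a pair are the same line. Deviations of libraries of 1 line from their group means correlated at 0.875 to 0.958, against at most -0.148 between lines. Subtracting a mean over the 4 lines pushes correlations between lines below 0. These values show that libraries of 1 line are alike and cannot test the pairing further. The labels do not say whether the lines' cultures were repeated, so p-values over libraries may measure technical spread.

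The genes and lists were chosen with earlier results of these data known. All 10 genes are named, with up to 3 genes of a list by unadjusted p and the 2 genes most like each in level. Of the list symbols, 1 was not matched in the files, and the values of 1 listed gene are not reported here. The fits were tested on simulated data. Alternatives were DESeq2 1.42.0, limma-voom (limma 3.58.1), other scalings, filters and prior counts, thinning, no replicate block, and leaving out libraries or lines.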

Additional observations from a re-analysis of the deposited data

Results flagged for a closer look

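The log2 ratio of KLF4 in H1975, PD-L1s over untreated, was 0.10, far below the 0.48, 0.49 and 0.50 of H23, EBC1 and H820, which lay close together on the TMM scale. With library size only the values were 0.0816 in H1975, against 0.54 in H23, 0.37 in EBC1 and 0.27 in H820, and with RLE size factors 0.0970, against 0.49, 0.40 and 0.47 in the same lines. The difference between H1975 and the other lines was -0.40 ± 0.283 (SE, interaction term in edgeR, unadjusted p = 0.172, adjusted p = 1). It was the 1 sample among 30 groups examined that stood beyond the critical value for a single outlying value, and chance alone gives about 1 in 20.

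The response of KLF10 in H820 exceeded that of the other lines by 0.83 on the log2 scale, by a test of the difference itself (edgeR adjusted p = 0.00865). The call was lost without H23 (adjusted p = 0.132) and without H1975 (adjusted p = 0.110). The depth and mitochondrial share of the H820 libraries differed too. Depth was examined only by thinning the deeper library of each line, an alternative added after seeing the data. The difference was then 0.77 (edgeR adjusted p = 0.0175). The part of the mitochondrial share was not tested.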

How the results depend on the processing

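No gene of the 10 was called for the treatment. KLF2 was the 1 call with no filter on low counts (edgeR adjusted p = 0.00617), with H23 and H1975 only, and without H820, so leaving out a line gave 0 to 1 calls. Over all alternatives run for the treatment, the log2 change of KLF2 stayed between 0.78 and 0.98. All genes called numbered 9, against 15 with library size only, 98 with no filter, 3 with a minimum count of 50, 28 with H23 and H1975 only, 5 to 20 with a line left out, and 0 without the replicate block (the pairing by line). The replicate block changed no call of the 10 genes. Several changes turned sign, among them some that were not near 0. KLF3 (0.02) was -0.00897 with DESeq2, -0.00841 with RLE size factors, -0.0616 with library size only, -0.0291 with a minimum count of 50, and -0.0389 to 0.0309 with a line left out. KLF11 (0.03) was -0.0335 with library size only, -0.00645 with a minimum count of 50, -0.0247 with H23 and H1975 only, and -0.0606 to 0.0536 with a line left out. KLF7 (-0.09) was -0.19 to 0.0357 with a line left out. With H23 and H1975 only it was 0.11, and there KLF10 (0.22) was -0.0262. Within lines, KLF5 in H820 (0.21) was -0.0184 and KLF6 in EBC1 (0.0949) was -0.0286 with library size only, and KLF6 in EBC1 was -0.00110 after thinning. KLF13 in H820 (0.15), whose counting interval included 0, was -0.0822 with library size only and -0.0536 after thinning, and with library size only KLF3 in EBC1 (0.10) was -0.0195, KLF5 in H1975 (0.00567) was -0.0107 and KLF10 in H23 (-0.0503) was 0.00897. The 1 call of a response in H820 became 2 with library size only and 0 to 3 with a line left out. The causes were not tested. The numbers of the 10 genes called between lines stayed within 1.5 times under each alternative run, while leaving out 1 library lost 0 to 9 and gained 0 to 3 calls of single genes per pair of lines over 8 fits. Depth limits KLF2 most, with 6 and 8 counts in untreated EBC1 and H820.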
